A study of Arabidopsis thaliana with 9 samples.

Results

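Inflorescences of Arabidopsis thaliana treated for 2 h with dexamethasone plus cycloheximide were compared with untreated inflorescences, over every locus of the deposited FPKM table with a usable estimate in all libraries and a mean of at least 1 FPKM. FPKM scales the fragments of a locus by its length and by the size of the library. Of 33871 loci on the TAIR10 build, 19569 met this rule and were tested. All plants, ap1 cal double mutants with the transgene 35S:AP1-GR, were grown in soil in long days at 22 °C and sampled at 5 weeks. The comparison used 3 untreated and 3 treated libraries, which the labels call biological replicates, and 3 libraries treated for 2 h with cycloheximide alone, the mock of the study, are given beside them. The AP1-GR fusion is driven by the 35S promoter, which is active in most tissues, and the plants of every group carried it. The untreated inflorescences received neither compound, so the effects of cycloheximide, of dexamethasone, of the activated fusion and of handling during treatment cannot be told apart in this comparison. The bulk samples likewise cannot tell fewer cells of a type from less RNA per cell.

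Cycloheximide blocks translation elongation, so that messages can still change while the proteins they encode are not renewed. Under such a block, messages that are normally held down or quickly degraded with the help of short-lived proteins often build up, which is known in plants for auxin, jasmonate and wound response genes. AP1 is a MADS-domain factor that specifies floral meristems together with its close relative CAL. In ap1 cal double mutants the apex proliferates as a mass of inflorescence meristems. In the fusion, AP1 is held in the cytoplasm by the hormone-binding part of the glucocorticoid receptor until dexamethasone is given.

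Treatment was followed by a change in most of the measured transcriptome. Regulators of stress, defence, jasmonate and auxin responses rose, many from near 0, while ribosomal protein, replication and photosynthesis genes fell. In all, 12505 of 19569 loci (63.9%) were called at an adjusted p under 0.05, 6035 higher (30.8%) and 6470 lower (33.1%). By at least 1 on the log2 scale 2977 loci (15.2%) rose and 1604 (8.2%) fell, or 2499 and 2530 with quantile normalization, and at 3 or more on that scale 976 rose and 56 fell. The median log2 fold change of all tested loci was -0.06, and the 3 libraries of one group lay wholly above or below those of the other at 13697 loci (70%). The test was limma on log2(FPKM + 1) with 1 spread estimated over all 9 libraries, and every log2 fold change below is on that scale, which shrinks the change where FPKM is low. Quantile normalization shifted the median of all loci to -0.25 and the share of higher calls from 48.3% to 33.8%.

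**Figure D1:**
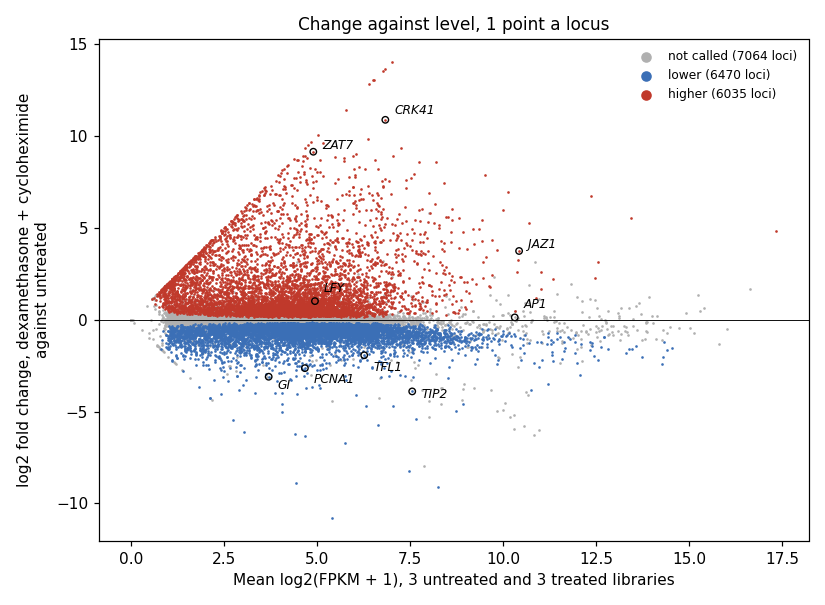
Log2 fold change of dexamethasone plus cycloheximide against untreated (vertical axis) plotted against the mean log2(FPKM + 1) of the 6 libraries (horizontal axis), 1 point a locus, with named genes circled. The red points of the 6035 loci called higher reach further from 0 than the blue points of the 6470 called lower, and AP1 lies near 0.

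The same 9 libraries give cycloheximide against untreated, where 10712 loci were called (54.7%; 26.5% higher and 28.2% lower), and the treated groups against each other, where 723 were called (3.69%; 1.91% higher and 1.78% lower). Changes of at least 1 on the log2 scale were called at 12.6% higher and 4.3% lower in the first, and at 0.705% higher and 0.281% lower, 0.986% in all, in the second. Replicate numbers were taken to pair the treated groups, from the data and not the labels. With the number as a block 1102 loci were called between these groups in a fit of all 9 libraries and 1544 in the 6 treated libraries alone (1024 higher and 520 lower). These comparisons share libraries with the one described, so their values are set beside it and no agreement is counted. Relative depth, read from the value of 1 fragment at loci of the commonest length, 101 bp, ranged from 0.490 to 1 in untreated, 0.559 to 0.649 in cycloheximide and 0.364 to 0.711 in the libraries with both compounds. The absolute depth is unknown. Correlation between replicates on the log2 scale was 0.953 to 0.980. A single short locus inside OPCL1 held 22.1% to 22.7% of the FPKM sum with both compounds and 13.7% to 16.5% with cycloheximide. The highest locus of untreated libraries held 2.28% to 3.57%. The part of the OPCL1 locus in the other values was not tested, since leaving out loci under 300 bp leaves the FPKM of other loci unchanged. The labels name a library kit without strand marking and the design text a strand-specific protocol, so values of antisense and overlapping loci are uncertain. Of the 176 loci named by rule, 21 touch another annotated gene, among them WRKY33, WRKY40, ATAF2, PCNA2, LHCA4, LHCB3, BOA and the small bZIP genes.

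Meristem markers were detected in every library. The 6 markers were STM, WUS, CLV1, CLV3, KNAT1 and LFY, and their summed FPKM was 313 to 348 in untreated, 234 to 275 with cycloheximide and 197 to 243 with both compounds. STM and KNAT1, which held most of the untreated sum, and CLV3 were lower with both compounds than untreated, while WUS, CLV1 and LFY were higher. Of 12 anther and pollen markers, 11 had a locus of their own, 6 stayed below 1 FPKM in every library, and the sum was 3.91 to 13.3 in untreated, 1.56 to 11.3 with cycloheximide and 1.06 to 1.41 with both compounds. The 9 seed, root and senescent leaf markers summed to 137 to 209 FPKM in untreated, 176 to 355 with cycloheximide and 321 to 571 with both compounds, with 5 below 1 FPKM and 1 of these at 0 throughout. SESA1, a seed storage albumin with close relatives in tandem, rose from 2.05, 2.33 and 0.857 FPKM in untreated to 205, 312 and 379.6 with both compounds and was 97.8, 226 and 161 with cycloheximide. The root glucosidase PYK10 read 157, 90.5 and 113 in untreated and 79.4, 139 and 148 with both compounds, and the groups overlapped. SCR, a root endodermis factor that shoots also express, read 37.7, 37 and 39.6 FPKM untreated, 27.1, 28.4 and 30.3 with both compounds and 38.3, 43.5 and 40.4 with cycloheximide alone, -0.40 ± 0.07 (SE) against untreated at adjusted p = 0.0015. The part of such cells in the results was not tested.

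Genes were read in 37 lists with 655 members, of which 546 were tested and 60 fell below the filter. A locus near 0 in untreated tissue enters the tested set only through its treated level, which held for 36 of the 546 by an untreated mean below 1 FPKM, while 10 had a treated mean below 1 FPKM. Counts below are of tested members and are to be read against the 30.8% of all loci that rose and the 33.1% that fell.

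Zinc finger, WRKY, ERF and NAC regulators of stress responses rose as groups. Every tested member of the ZAT and AZF zinc finger repressors (8 of 8) and of the WRKY factors (23 of 23) was called higher, with median log2 fold changes of 6.35 and 3.45 against -0.06 for all loci. Members near 0 without treatment, such as ZAT7 and WRKY30, were tested only because of their treated level and could hardly be called lower. The lists were chosen with earlier results of these data known. Of 19 ERF and DREB factors 15 rose and none fell, and of 13 stress NAC factors 12 rose and 1, NAC047, fell. The rises were also present with cycloheximide alone, where the medians of these lists were 5.39, 2.51, 2.99 and 2.29. Between the treated groups none of the ZAT and WRKY members, 1 of the ERF and DREB members and 2 of the NACs were called, beside 3.69% of all loci. With the replicate block in the 6 treated libraries these counts were 2 of the ZAT, 3 of the WRKY, 2 of the ERF and DREB and 6 of the NAC members, each of them higher. That fit called more of all loci too, 1544 of 19569, of which 1024 were higher.

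ZAT7, a C2H2 zinc finger repressor of stress responses, read 0.359, 0.249 and 0.165 FPKM without treatment, 279, 352 and 555 in cycloheximide and 801, 539 and 813 in both compounds. Each treated library lay far above every untreated one. Its log2 fold change was 9.14 ± 0.25 (SE), adjusted p = 9.9e-08. Its relatives ZAT11, ZAT12 and STZ, the salt tolerance zinc finger also known as ZAT10, behaved alike in direction, with log2 fold changes of 7.68 ± 0.51 (SE), 6.76 ± 0.22 (SE) and 7.69 ± 0.17 (SE). STZ was the most abundant of them, at 12.3, 11.7 and 11.6 FPKM in untreated and 2374, 2627 and 2983 with both compounds. Among WRKY factors, which bind W-boxes and act in defence, WRKY40 rose from 11.6, 10.7 and 11.2 to 2008, 2318 and 2701 FPKM and WRKY46 from 22.8, 20 and 33.6 to 4215, 5171 and 4006. WRKY30 rose from near 0, 0.0502, 0.102 and 0.124 FPKM, to 151, 111 and 292. WRKY33, which drives camalexin synthesis against fungi, read 19.8, 19.8 and 49.8 in untreated libraries and 1667, 1549.8 and 2372 with both compounds. Untreated replicate 3 was the highest untreated library of WRKY33 and still lay far below every treated one. The 4 log2 fold changes were 7.58 ± 0.18 (SE), 7.42 ± 0.21 (SE), 7.29 ± 0.47 (SE) and 6.03 ± 0.41 (SE), with adjusted p from 5.2e-08 to 6e-06.

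Ethylene response factors and stress NACs rose from low untreated levels. ERF105, a member of the ERF family, read 7.9, 11.5 and 16.9 FPKM untreated, 2921, 2922 and 3209.7 with both compounds and 2262, 2903 and 3365 with cycloheximide alone, a log2 fold change of 7.90 ± 0.25 (SE), adjusted p = 1.8e-07. Both treated groups were at about the same level, 0.10 ± 0.25 (SE) apart on the log2 scale. ERF13 rose by 7.53 ± 0.12 (SE), ERF2 by 7.23 ± 0.15 (SE) and ERF11, a repressor of ethylene synthesis genes, by 6.36 ± 0.25 (SE). NAC036 went from 0.745, 0.796 and 0.703 to 326, 261 and 364 FPKM, a log2 fold change of 7.49 ± 0.27 (SE). ATAF2, RD26 and NAC3, NAC factors of wounding and dehydration responses, rose by 5.83 ± 0.25 (SE), 5.57 ± 0.38 (SE) and 4.59 ± 0.40 (SE). NAC047 read 33.5, 33.4 and 23.3 in untreated and 6.02, 4.99 and 8.38 with both compounds, and fell by 2.06 on the log2 scale.

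Calcium sensors, kinases and genes of oxidative stress rose too. Of 9 calmodulin-like and related sensors 8 rose and none fell (median log2 5.71), all 14 MAP kinase cascade genes rose (median 1.85), and of 11 oxidative stress genes 9 rose and 1 fell (median 3.95). Between the treated groups the medians of these lists were 0.63, 0.35 and 1.42, and no member was called. With the replicate block 2, 1 and 4 members were called in all 9 libraries, beside 1102 of 19569 loci. In the 6 treated libraries they were 2, 2 and 7, beside 1544, each of these members higher. CML37, a calmodulin-like protein of wounding, read 0.895, 0.912 and 1.47 FPKM without treatment, 479, 568 and 725 in cycloheximide and 1009, 820.4 and 1102 in both compounds, a log2 fold change of 8.87 ± 0.18 (SE), adjusted p = 4.5e-08. No untreated library reached 2 FPKM. CML41, CML38 and TCH3, the last first known as a touch-induced gene, rose by 8.26 ± 0.35 (SE), 6.32 ± 0.28 (SE) and 6.92 ± 0.35 (SE). TCH3 was abundant, at 89, 66.9 and 171 FPKM in untreated and 11447, 12356 and 13294 with both compounds. MPK3, a MAP kinase of immune signalling, read 99.5, 91.9 and 227, then 8002, 8010.5 and 8499.8, a log2 fold change of 5.99 ± 0.34 (SE). Untreated replicate 3 was the highest of the untreated libraries for both TCH3 and MPK3. Its kinase relatives MAPKKK19, MKK9 and MPK11 rose by 5.49 ± 0.41 (SE), 4.75 ± 0.11 (SE) and 4.74 ± 0.22 (SE).

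OXI1, a kinase activated by hydrogen peroxide, went from 0.207, 0.136 and 0.0963 FPKM to 238, 262 and 374 with both compounds, a log2 fold change of 7.97 ± 0.31 (SE), adjusted p = 3.7e-07. AOX1A, the mitochondrial alternative oxidase, and UGT74E2, a glucosyltransferase of an auxin precursor, rose by 6.18 ± 0.46 (SE) and 5.28 ± 0.55 (SE). RBOHF, an NADPH oxidase, varied widely between libraries. It read 7.46, 5.89 and 1869.9 FPKM untreated, 8993, 8347 and 18280 with both compounds and 15.1, 8249 and 12276 with cycloheximide alone. The adjusted p of 0.039 rose to between 0.074 and 0.124 without untreated replicate 1 or 2 or any one of the 3 libraries with both compounds. Heat shock factors and chaperones were mixed, with 11 of 16 higher and 3 lower (median log2 0.66). HSFB2A, HSFA4A, HSFB2B and HSFA3, transcription factors of the family, rose by 4.21 ± 0.16 (SE), 3.84 ± 0.27 (SE), 2.71 ± 0.08 (SE) and 1.47 ± 0.18 (SE). The chaperones of the endoplasmic reticulum BIP1 and BIP2 fell, at log2 fold changes of -1.45 ± 0.21 (SE) and -1.16 ± 0.29 (SE).

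Further genes stood among the 15 largest rises of loci with 1 named gene. SARD1 and CBP60G, the paired transcription factors that switch on salicylic acid synthesis, went from 2.97, 2.19 and 6.7 and 0.774, 0.797 and 1.99 FPKM in untreated to 1281, 1511 and 1236 and 459, 592 and 599 with both compounds. Their log2 fold changes were 8.19 ± 0.30 (SE) and 8.01 ± 0.29 (SE), adjusted p = 3e-07 and 2.9e-07. BAP2, an inhibitor of programmed cell death, read 0.177, 0.22 and 0.0858, then 154, 218 and 294 in cycloheximide and 581, 485 and 618 in both compounds. It rose by 8.91 ± 0.21 (SE) against untreated and also by 1.38 ± 0.21 (SE) between the treated groups, adjusted p = 0.022, which moved to between 0.0515 and 0.0828 without untreated replicate 2, cycloheximide replicate 2, or replicate 1 or 3 of both compounds. BHLH92, a basic helix-loop-helix factor, GSTU11, a tau-class glutathione S-transferase, and SYP122, a syntaxin of the plasma membrane, rose by 8.79 ± 0.29 (SE), 8.32 ± 0.33 (SE) and 7.82 ± 0.19 (SE). DLAH, a lipase-like acylhydrolase, was listed at 0 in 1 untreated library and below 0.1 FPKM in the others, and read 239, 207 and 354 with both compounds. CRK41, a cysteine-rich receptor-like kinase, had the largest rise of a named gene, 10.87 ± 0.80 (SE), but its treated libraries ranged from 2109 to 13854 FPKM with cycloheximide and from 1838 to 12207 with both compounds, against 1.28 to 1.89 in untreated. At least 40 other loci with larger rises than the 15th of these held no single gene with a symbol and are not named.

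The promoter of SARD1 is shown for the W-box core TTGAC, part of the W-boxes that WRKY factors bind. Whether WRKY factors act on SARD1 was not tested. The 250 bases before the RefSeq gene start (TAIR10.1, chr1:27749249-27749498, minus strand) hold 4 copies of this core, read on both strands and marked in capitals, of which 2 on opposite strands abut. None of the 4 is part of the longer W-box TTGACC.
SARD1: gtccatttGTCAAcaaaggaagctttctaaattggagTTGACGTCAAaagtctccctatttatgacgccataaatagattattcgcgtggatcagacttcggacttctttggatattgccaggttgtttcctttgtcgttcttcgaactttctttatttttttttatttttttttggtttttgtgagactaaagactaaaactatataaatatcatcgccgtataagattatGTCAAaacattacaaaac
The core was found in 44.8% of the windows of all 17099 tested loci of 1 gene with a RefSeq start. It was in 54.8% of those called higher by at least 1 on the log2 scale, in 60% of those higher by at least 3, in 42.5% of those lower by at least 1, and in 43.4% of those not called. The longer W-box was in 12.3% of all windows, 16.7% of those higher by at least 1 and 20.9% of those higher by at least 3. It was in 10% of those lower by at least 1 and 11.6% of those not called. The GCC box GCCGCC, named for ERF factors, was in 1.96% of all windows, in 1.85% of those higher by at least 1, in 2.75% of those higher by at least 3, in 1.15% of those lower by at least 1 and in 1.93% of those not called.

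**Figure D2:**
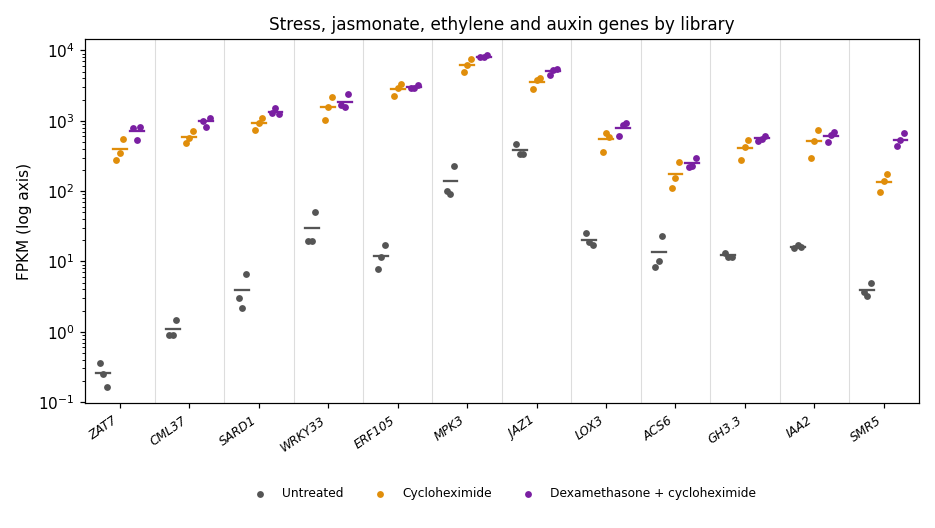
FPKM of 12 stress, jasmonate, ethylene and auxin genes in each of the 9 libraries (log axis), with points for libraries and bars for group means. In all 12 genes every treated library lies above every untreated one. In some of them, such as CML37, JAZ1 and SMR5, the treated groups also lie apart from each other, as they do at 25.4% of all loci.

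**Figure D3:**
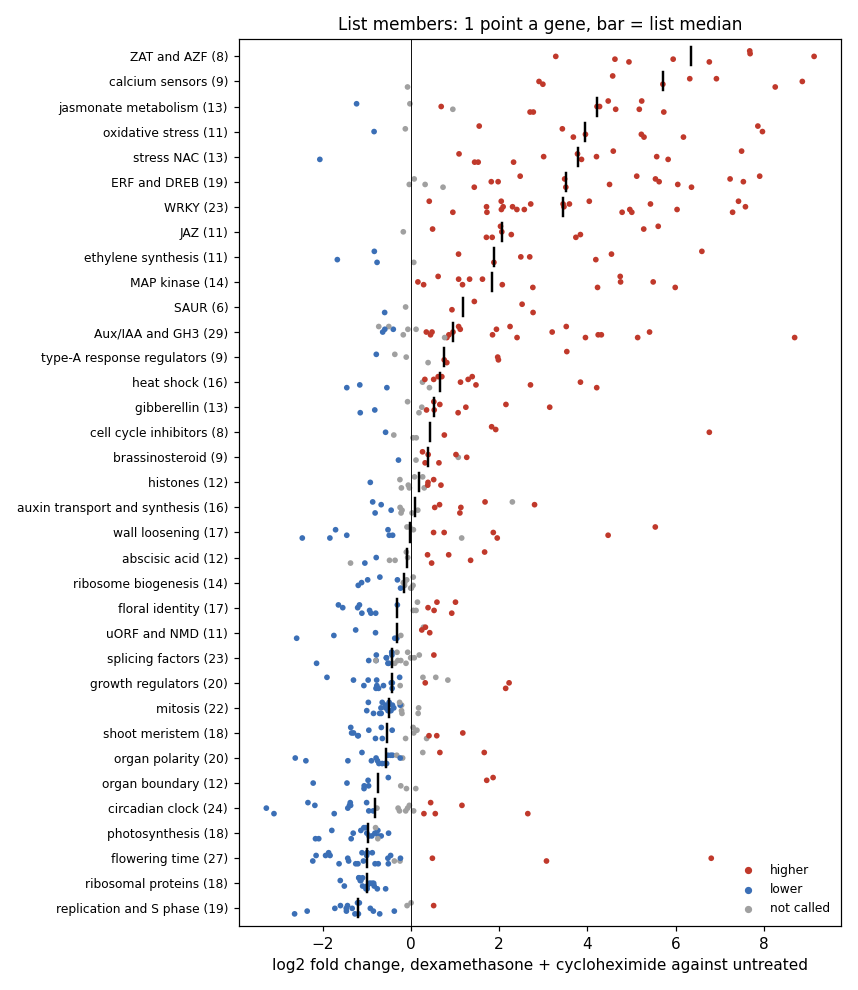
Log2 fold change of each tested list member against untreated (horizontal axis), 1 row a list with the number tested in parentheses, ordered by the list median (black bar). Points are coloured by call, and the medians run from -1.21 for replication and S phase to 6.35 for the ZAT and AZF genes.

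Jasmonate genes rose on the side of synthesis, repression and breakdown alike. JAZ proteins are repressors that the jasmonate receptor destroys, and their genes are themselves jasmonate targets. Of 11 tested JAZ genes 10 rose and none fell (median log2 2.06), and of 13 jasmonate metabolism genes 10 rose and 1 fell (median 4.22). With cycloheximide alone the medians were 1.71 and 3.54, and between the treated groups no member of either list was called. JAZ1 read 467, 342 and 332 FPKM in untreated, 2798, 3827 and 4009.8 with cycloheximide and 4436, 5333 and 5362 with the 2 compounds, so that the lowest treated library was several times the highest untreated one. Its log2 fold change was 3.74 ± 0.22 (SE), adjusted p = 3.2e-06. JAZ5, JAZ7 and JAZ8 rose by 3.84 ± 0.22 (SE), 5.28 ± 0.31 (SE) and 5.60 ± 0.32 (SE). LOX3 and LOX4, lipoxygenases of the first step of synthesis, rose from 25, 18.9 and 16.9 and 20.09, 15.6 and 22.1 FPKM to 605, 879.7 and 917 and 826, 1139.5 and 1276, log2 fold changes of 5.23 ± 0.27 (SE) and 5.73 ± 0.28 (SE). OPCL1, an acyl-CoA ligase of a later step, and CYP94C1, which oxidises the active hormone, rose by 5.17 ± 0.19 (SE) and 4.64 ± 0.20 (SE).

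The rapid stress response element CGCGTT, a motif of early wound and stress genes, was searched on both strands of the 250 bases before each gene start. The element was in 2.97% of the windows of all tested loci of 1 gene, in 6.38% of those higher by at least 1 on the log2 scale and in 8.5% of those higher by at least 3. It was in 1.99% of those lower by at least 1 and in 2.04% of those not called.

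Ethylene synthesis genes rose at the committed step. Of 11 genes of the list 7 rose and 3 fell (median log2 1.88). ACS6, an ACC synthase that MAP kinases stabilise, read 8.35, 10.1 and 23 FPKM without treatment, 109.7, 154 and 257 in cycloheximide and 221, 226 and 299 in both compounds, a log2 fold change of 4.19 ± 0.40 (SE), adjusted p = 4.1e-05. Its paralogs ACS2, ACS8 and ACS7 started below 1 FPKM and rose by 6.59 ± 0.49 (SE), 4.54 ± 0.31 (SE) and 2.69 ± 0.28 (SE). The F-box genes EBF1 and EBF2, which restrain ethylene signalling, were among those that fell, at -0.83 ± 0.11 (SE) and -0.77 ± 0.15 (SE). EBF1 also fell between the treated groups, at -0.61 ± 0.11 (SE), with adjusted p = 0.036, a call lost at 0.0514 to 0.112 with the replicate block and without any one library other than cycloheximide replicate 3.

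Auxin response genes rose with both compounds as with cycloheximide alone. Aux/IAA proteins are short-lived repressors of auxin response, and GH3 enzymes conjugate the hormone. Of 29 Aux/IAA and GH3 genes 20 rose and 3 fell (median log2 0.95 against untreated, 1.2 with cycloheximide and -0.07 between the treated groups), and none was called between the treated groups, or 1, GH3.1, with the replicate block. Quantile normalization gave 17 higher and 7 lower. IAA2 read 15.4, 17.3 and 16 FPKM untreated, 502, 633 and 697 with both compounds and 297, 512 and 732 with cycloheximide alone, a log2 fold change of 5.14 ± 0.29 (SE). GH3.3 went from 13.4, 11.6 and 11.7 to 520.0, 555 and 605 FPKM, a log2 fold change of 5.41 ± 0.21 (SE), and GH3.1 from at most 0.106 FPKM to 346, 466 and 562, 8.70 ± 0.34 (SE). IAA3 rose by 4.31 ± 0.19 (SE). IAA8, IAA9 and IAA27 were the members that fell, at -0.64 ± 0.15 (SE), -0.59 ± 0.11 (SE) and -0.40 ± 0.12 (SE). The SAUR genes, small auxin-induced growth genes, were mostly too low to test: 13 of 22 fell below the filter, and of 6 tested 4 rose and 1 fell. SAUR41 read 3.7, 3.46 and 3.85 in untreated, 17.5, 20 and 18 in cycloheximide and 26.3, 27.9 and 23.2 in both compounds, a rise of 2.52 ± 0.09 (SE). SAUR78, SAUR72 and SAUR16 rose by 2.77 ± 0.29 (SE), 1.44 ± 0.13 (SE) and 0.93 ± 0.11 (SE).

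Among 16 auxin transport and synthesis genes 6 were higher and 4 lower (median log2 0.09), or 5 and 7 with quantile normalization (-0.28). The shares over all loci were 30.8% higher and 33.1% lower. YUC1, an auxin synthesis enzyme, read 2.57, 2.96 and 2.69 FPKM in untreated and 29.4, 21.4 and 25 with both compounds, 2.80 ± 0.11 (SE) on the log2 scale. PID and WAG2, kinases that direct auxin transport, rose by 1.68 ± 0.09 (SE) and 1.13 ± 0.12 (SE). Type-A response regulators, which damp cytokinin signalling, had 5 of 9 higher and 1 lower, or 3 and 2 with quantile normalization. ARR5 read 3.55, 4.27 and 6.69 in untreated and 57.5, 64 and 74 with both compounds, 3.53 ± 0.32 (SE), and ARR7 and ARR17 rose by 1.98 ± 0.16 (SE) and 1.97 ± 0.16 (SE). The rise of ARR6, 0.81 ± 0.26 (SE), was called at adjusted p = 0.025, which moved to between 0.0517 and 0.0812 without untreated replicate 2 or 3 or without any one of the libraries with both compounds. ARR9 fell against untreated and between the treated groups, at -0.79 ± 0.18 (SE) and -1.06 ± 0.18 (SE). The latter call was lost, at adjusted p of 0.0517 to 0.0928, with the replicate block in the 6 treated libraries. It was also lost without untreated replicate 1 or 2, cycloheximide replicate 1 or 2, or replicate 1 or 3 of both compounds.

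Of 13 gibberellin genes 8 rose and 2 fell, or 5 and 3 with quantile normalization. Enzymes that inactivate gibberellin rose, GA2OX6 by 2.15 ± 0.43 (SE) and GA2OX2 by 1.24 ± 0.10 (SE), and the synthesis genes GA20OX1 and GA20OX2 fell, at -1.15 ± 0.18 (SE) and -0.82 ± 0.19 (SE). RGL3, a DELLA repressor of gibberellin response, read 15.1, 12 and 10.5 FPKM without treatment, 42.9, 74 and 56.7 in cycloheximide and 93.4, 132 and 132 in both compounds, a rise of 3.14 ± 0.22 (SE). Each treated library lay above every untreated one. Of 9 brassinosteroid genes 6 rose and 1 fell. BR6OX2, the oxidase that makes brassinolide, read 18.17, 18.7 and 10.9 in untreated, 24, 17.6 and 18.5 in cycloheximide and 43.3, 37.8 and 35.4 in both compounds. It rose by 1.26 ± 0.20 (SE) against untreated, at adjusted p = 0.00074, while cycloheximide alone gave 0.34, adjusted p = 0.19. ROT3, another synthesis enzyme, and BAS1, which inactivates the hormone, rose by 1.02 ± 0.18 (SE) and 0.63 ± 0.09 (SE). The receptor gene BRI1 rose by 0.39 ± 0.12 (SE), a call at adjusted p = 0.018 that moved to between 0.0586 and 0.0672 without untreated replicate 1 or 2 or without replicate 2 of both compounds. In the abscisic acid list 5 of 12 rose and 2 fell (median log2 -0.09), or 5 and 6 with quantile normalization (-0.35). NCED3, the limiting enzyme of synthesis, rose by 1.67 ± 0.28 (SE), the phosphatases ABI1 and HAI3 by 1.35 ± 0.08 (SE) and 0.86 ± 0.15 (SE), and the factor ABF3 fell, at -1.04 ± 0.16 (SE).

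Most floral and meristem regulators that passed the test fell, and a few rose. AP1 itself did not pass the test. It read 1098, 1183 and 1379.9 FPKM untreated, 989.9, 1576 and 1487 with both compounds and 1088, 1475 and 1536 with cycloheximide alone, and the groups overlapped. Its log2 fold change was 0.12 ± 0.23 (SE), adjusted p = 0.66, and reads of the AP1-GR transgene and of the endogenous gene cannot be told apart at this locus. CAL fell from 74.9, 66.7 and 63 to 42.2, 36.4 and 36.4 FPKM, -0.82 ± 0.11 (SE) on the log2 scale, adjusted p = 0.00032, with 54.1, 45.1 and 42.9 under cycloheximide.

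LFY, which specifies floral meristems and activates AP1, rose. It read 22.2, 20.8 and 19 FPKM without treatment, 36.9, 27.6 and 32.9 in cycloheximide and 52, 36.8 and 40.2 in both compounds. Every treated library was above every untreated one, and the log2 fold change was 1.01 ± 0.15 (SE), adjusted p = 0.00043. That between the treated groups was 0.39 ± 0.15 (SE), adjusted p = 0.16. With the replicate block, chosen after seeing the data, the adjusted p was 0.0615 in all 9 libraries and 0.0481 in the 6 treated libraries. LMI1, a homeodomain factor that acts with LFY on CAL, read 10.3, 9.05 and 8.23 in untreated, 9.99, 9.66 and 11.6 in cycloheximide and 15.6, 17.2 and 22.8 in both compounds. The libraries with both compounds stood apart from both other groups, by 0.92 ± 0.14 (SE) against untreated at adjusted p = 0.00061 and by 0.76 ± 0.14 (SE) against cycloheximide at 0.036. The latter call was lost, at 0.0502 to 0.105, with no filter, without any one untreated library, without cycloheximide replicate 1 or 2 and without replicate 2 or 3 of both compounds. The organ identity genes that passed the test fell. PI, a petal and stamen gene, read 37.8, 43.5 and 42.3 in untreated and 17.3, 20.4 and 15.9 with both compounds, -1.17 ± 0.16 (SE), and CRC, a carpel gene, fell by 1.64 on the log2 scale. AG, the carpel and stamen gene, read 1.15, 1.82 and 2.02 FPKM in untreated and 0.235, 0.299 and 0.134 with both compounds, -1.11 ± 0.32 (SE), adjusted p = 0.015. AP3, the partner of PI, was called at adjusted p = 0.049 with a log2 fold change of -1.55 ± 0.59 (SE), which moved to between 0.0673 and 0.129 without any one untreated library, cycloheximide replicate 3, or replicate 2 or 3 of both compounds. SEP3, a cofactor of the floral organ genes, gave -1.21 ± 0.42 (SE), adjusted p = 0.033, and 0.0638 to 0.102 without untreated replicate 1 or 2 or any one library with both compounds. Over the floral identity list, which leaves out AP1 and CAL, 5 of 17 rose and 9 fell (median log2 -0.31).

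**Figure D4:**
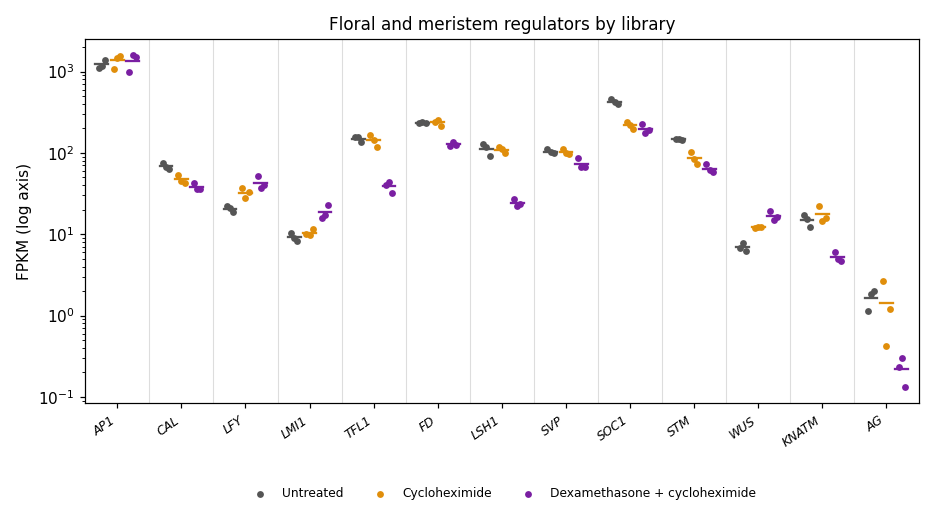
FPKM of 13 floral and meristem regulators in each of the 9 libraries (log axis), with points for libraries and bars for group means. TFL1, FD, LSH1 and KNATM overlap the untreated libraries with cycloheximide and are lower with both compounds, and AP1 overlaps in all groups.

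Flowering time regulators fell as a group: 22 of 27 were lower and 3 higher, with a median log2 fold change of -0.99. In some of them the cycloheximide libraries overlapped the untreated ones and the libraries with both compounds were lower than either. TFL1, the repressor that keeps the inflorescence meristem from turning floral, read 156, 157 and 136 FPKM untreated, 40.7, 43.4 and 31.8 with both compounds and 165, 144 and 117 with cycloheximide alone. The libraries with both compounds stood apart from the other groups, whose values overlapped. The log2 fold change was -1.93 ± 0.15 (SE) against untreated (adjusted p = 1.5e-05) and -1.85 ± 0.15 (SE) against cycloheximide (adjusted p = 0.0028), and cycloheximide alone gave -0.08, adjusted p = 0.67. FD, the bZIP partner of TFL1 and FT, read 231, 239.7 and 230.2, then 243, 256 and 212 and 122, 135 and 124, with -0.88 ± 0.10 (SE) against untreated and -0.89 ± 0.10 (SE) between the treated groups. Its paralog FDP gave -1.25 ± 0.11 (SE) and -1.04 ± 0.11 (SE). LSH1, of the ALOG family of boundary and meristem proteins, read 129, 118 and 90.3, then 119, 112 and 99.5 and 26.8, 22.5 and 23.7, with -2.15 ± 0.14 (SE) and -2.13 ± 0.14 (SE), adjusted p = 5.1e-06 and 0.0013. SVP, a MADS-domain repressor of flowering, was at 111, 101.4 and 99.5, 111, 100.8 and 96.5 and 85.6, 66.7 and 66.7 FPKM and fell, at -0.51 ± 0.11 (SE) against untreated, adjusted p = 0.0044. Between the treated groups its adjusted p was 0.055, or with the replicate block 0.029 in all 9 libraries and 0.0414 in the 6 treated libraries.

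Other flowering genes fell under cycloheximide as well. SOC1, a MADS-domain integrator of flowering signals, read 462, 419 and 398 FPKM without treatment, 243, 221 and 196 in cycloheximide and 228, 174 and 192 in both compounds, -1.11 ± 0.13 (SE) on the log2 scale, adjusted p = 0.00014. The treated groups overlapped. AGL24, its partner, fell, at -0.74 ± 0.12 (SE). FUL, the closest relative of AP1 and CAL in the list, fell, at -0.24 ± 0.08 (SE) at adjusted p = 0.03, and 0.0549 to 0.0840 without any one untreated library or any one library with both compounds. The miR156 targets SPL9 and SPL15 read 33.3, 33.1 and 34.9 and 17.8, 19.3 and 18.5 in untreated and 9.5, 7.54 and 8.66 and 5.21, 4.72 and 6.09 with both compounds. They fell, at -1.87 ± 0.10 (SE) and -1.63 ± 0.10 (SE), and the decline continued from cycloheximide to both compounds at -0.72 ± 0.10 (SE) and -0.49 ± 0.10 (SE), adjusted p = 0.015 and 0.038. That of SPL9 moved to 0.0533 to 0.0583 without cycloheximide replicate 1 or 2 or replicate 3 of both compounds. That of SPL15 moved to 0.0535 to 0.103 with no filter, with the replicate block in the 6 treated libraries or without any one library other than cycloheximide replicate 3. LSH4, an ALOG gene of organ boundaries, fell in the same stepwise way, from 51.2, 50.6 and 40.5 to 23.1, 21.1 and 20.09 and 10.5, 8.84 and 8.7 FPKM, -2.22 ± 0.11 (SE), with -1.12 ± 0.11 (SE) between the treated groups. The 3 members that rose were the FT repressors TEM1 and TEM2 and the boundary gene BOP1. TEM2 went from 0.0994, 0.0914 and 0.218 FPKM to 122.8, 109.9 and 148, 6.81 ± 0.15 (SE), and was already at 90.5, 104 and 133 with cycloheximide. TEM1 rose by 3.07 ± 0.14 (SE). BOP1 rose by 0.49 ± 0.10 (SE) but fell between the treated groups, at -0.74 ± 0.10 (SE), adjusted p = 0.013, or 0.0514 and 0.0567 without cycloheximide replicate 2 or replicate 3 of both compounds.

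In the shoot meristem list 10 of 18 fell and 3 rose (median log2 -0.54). STM, which maintains the meristem, fell from 148, 149 and 145 to 72.9, 62.1 and 57.5 FPKM, -1.19 ± 0.14 (SE), adjusted p = 0.00011, and was 103, 84.2 and 72.4 with cycloheximide. Its relatives KNAT1 and KNAT2 fell, at -1.21 ± 0.12 (SE) and -1.34 ± 0.09 (SE), and AIL7, of the AINTEGUMENTA family, at -1.30 ± 0.08 (SE). KNATM, a KNOX protein without a homeodomain, read 17.4, 15.6 and 12.1, then 22.2, 14.6 and 15.8 in cycloheximide and 6.02, 4.9 and 4.65 in both compounds. Only the last group stood apart, at -1.36 ± 0.18 (SE) against untreated and -1.57 ± 0.18 (SE) against cycloheximide, adjusted p = 0.00025 and 0.0095. WUS, the stem cell organiser gene, rose from 6.69, 7.75 and 6.18 to 19.1, 14.9 and 16.4 FPKM, 1.18 ± 0.10 (SE), adjusted p = 2.6e-05. CLV3, the stem cell peptide that represses WUS, read 17.5, 13.5 and 13.9 in untreated, 16.8, 11.5 and 13.9 in cycloheximide and 10.6, 6.71 and 5.11 in both compounds, -0.95 ± 0.24 (SE), adjusted p = 0.0072, and its receptor CLV1 rose by 0.41 ± 0.07 (SE). WUS, CLV3 and CLV1 are known from a feedback loop in the stem cell niche.

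Organ boundary, polarity and growth genes fell more often than they rose, with 7, 15 and 13 lower and 2, 2 and 3 higher of 12, 20 and 20 tested. LOB, a boundary factor, fell from 11, 12 and 8.53 to 1.62, 1.7 and 1.11 FPKM, -2.22 ± 0.19 (SE), and CUC3, a boundary NAC, at -1.45 ± 0.24 (SE). DRNL and DRN, AP2-family genes of organ founder cells, rose instead, from 7.19, 6 and 5.52 and 11.3, 9.91 and 10.0 FPKM to 29.3, 23.7 and 22.9 and 42.6, 31.8 and 35.8, 1.86 ± 0.12 (SE) and 1.72 ± 0.11 (SE). ZPR1 and ZPR2, small zipper proteins that hold HD-ZIP III factors inactive, went from 59.7, 52.7 and 33.6 and 31.8, 39.3 and 25.2 FPKM in untreated to 26, 19.8 and 20.11 and 16.2, 14.5 and 11.6 with cycloheximide and 9.01, 11.1 and 5.58 and 6.18, 4.34 and 2.88 with both compounds. In both genes the 3 groups formed separate steps downward, -2.38 ± 0.27 (SE) and -2.62 ± 0.24 (SE) against untreated. FIL, an abaxial YABBY gene, fell, at -1.43 ± 0.12 (SE), and KAN3, an abaxial KANADI gene, rose by 1.66 ± 0.22 (SE). Of the growth regulators, GRF7 and GRF1 fell, at -1.90 ± 0.18 (SE) and -1.30 ± 0.08 (SE) and GRF8 rose by 2.15 ± 0.13 (SE). GIF3, a coactivator of GRF factors, read 8.08, 9.48 and 29.4 in untreated and 42.6, 86.4 and 76.5 with both compounds, 2.22 ± 0.66 (SE) at adjusted p = 0.017. That value moved to between 0.0503 and 0.0606 without untreated replicate 1 or 2 or without replicate 2 or 3 of both compounds.

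Genes of DNA replication fell together and cell cycle inhibitors divided. Of 19 replication and S phase genes 16 fell and 1 rose (median log2 -1.21, -1 with cycloheximide alone), and of 22 mitotic genes 16 fell and none rose (median -0.49). PCNA1 and PCNA2, the sliding clamp of DNA polymerase, read 69.8, 62.8 and 55.7 and 50.3, 48.3 and 45.9 FPKM in untreated and 8.89, 9.09 and 9.67 and 9.29, 8.41 and 8.22 with both compounds. Their levels with cycloheximide were 12.5, 13.9 and 7.6 and 13.9, 12.8 and 8.98. The log2 fold changes were -2.64 ± 0.19 (SE) and -2.35 ± 0.14 (SE), adjusted p = 8.7e-06 and 3.1e-06. TSO2, a ribonucleotide reductase subunit, fell, at -1.60 ± 0.12 (SE), and CYCD1;1, a D-type cyclin, at -1.72 ± 0.10 (SE), with -0.73 ± 0.10 (SE) between the treated groups, adjusted p = 0.015, or 0.0544 and 0.0534 without cycloheximide replicate 1 or 2. Among mitotic genes, the Aurora kinases AUR1 and AUR2 fell from 48.2, 50.8 and 48 and 41.9, 42 and 38.7 to 29.4, 27.1 and 24 and 20.9, 20.4 and 18.5 FPKM, -0.85 ± 0.11 (SE) and -1.002 ± 0.10 (SE). CYCA1;1, an A-type cyclin, and MYB3R4, an activator of mitotic genes, fell, at -0.97 ± 0.11 (SE) and -0.71 ± 0.12 (SE).

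SMR5, a cyclin-dependent kinase inhibitor of the SIAMESE family known from responses to reactive oxygen, read 3.73, 3.22 and 4.96 FPKM untreated, 431, 531 and 660.0 with both compounds and 97.8, 138 and 172 with cycloheximide alone. The groups formed separate steps, 6.76 ± 0.24 (SE) against untreated and 2.00 ± 0.24 (SE) between the treated groups, adjusted p = 2.5e-07 and 0.011. Its relatives LGO and SMR4, and KRP6 of the other inhibitor family, rose by 1.83 ± 0.13 (SE), 0.76 ± 0.11 (SE) and 1.92 ± 0.18 (SE), and KRP3 fell, at -0.57 ± 0.12 (SE). In all 4 of 8 inhibitors rose and 1 fell. Histone genes, whose messages often lack a poly(A) tail in animals but carry one in plants, mostly did not pass the test, with 4 of 12 higher and 1 lower. HTA7 rose by 0.68 ± 0.09 (SE) and HTA12 fell, at -0.92 ± 0.24 (SE). HTB1 and HTB11 were called higher at 0.39 ± 0.13 (SE) and 0.52 ± 0.16 (SE), adjusted p = 0.027 and 0.02. Both lost the call without untreated replicate 3 or replicate 1 of both compounds, HTB1 also without untreated replicate 2 or replicate 2 of both compounds and HTB11 without untreated replicate 1, at 0.0553 to 0.0794. Quantile normalization left HTB1 at 0.12 and HTB11 at 0.27 on the log2 scale, uncalled. The histone counts come from members with a locus of their own, and 8 of 20 shared a locus or were not matched.

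**Figure D5:**
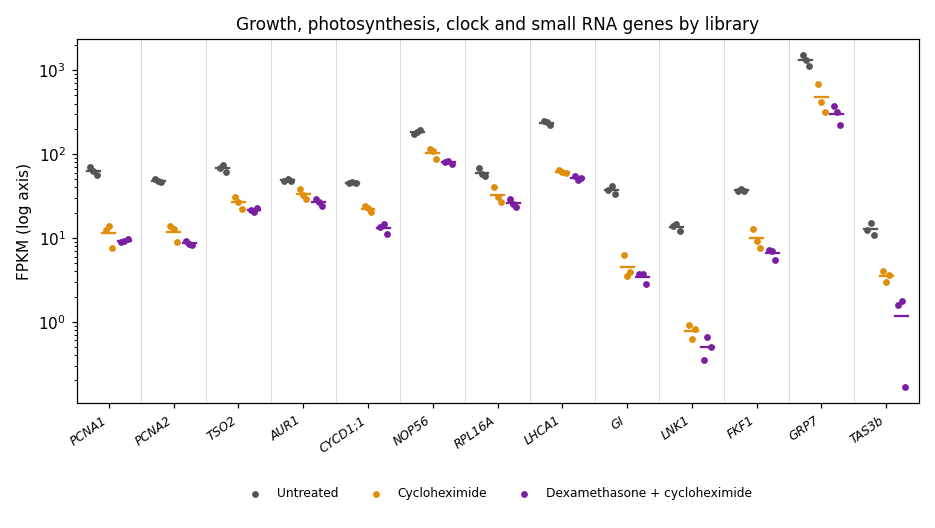
FPKM of 13 growth, photosynthesis, clock and small RNA genes in each of the 9 libraries (log axis), with points for libraries and bars for group means. In all 13 genes every library with both compounds lies below every untreated library.

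Messages of ribosomal proteins fell. All 18 tested ribosomal protein genes were lower (median log2 -1.01), as they were with cycloheximide alone (median -0.86), while none was called between the treated groups. RPL16A, a protein of the large subunit, read 67.4, 57.3 and 54.6 FPKM without treatment, 40.3, 30.9 and 27.1 in cycloheximide and 29.4, 25.2 and 23.2 in both compounds, -1.17 ± 0.16 (SE) on the log2 scale, adjusted p = 0.00026. RPS13A, of the small subunit, read 1095, 1035 and 926 in untreated and 382, 357 and 332 with both compounds, -1.51 ± 0.18 (SE). The ribosomal protein genes AT5G03850 and AT5G41520 fell, at -1.60 ± 0.19 (SE) and -1.18 ± 0.15 (SE). Ribosomal proteins are encoded by near-identical paralogs, between which the authors' counting may have split reads. Of 14 genes of ribosome assembly 6 fell and none rose (median log2 -0.16). NOP56 and AT5G27120, nucleolar proteins of the same family, fell, at -1.19 ± 0.11 (SE) and -0.98 ± 0.09 (SE). NUC-L1, the nucleolin gene, went from 251, 261 and 254 to 122, 118 and 111 FPKM, -1.12 ± 0.11 (SE), and CBF5, a pseudouridine synthase of ribosomal RNA, fell, at -0.70 ± 0.08 (SE).

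The promoter of RPL16A is shown for the site II element TGGGCC and the telo-box AAACCCTA, motifs known from promoters of ribosomal protein and replication genes. Its window (chr2:17791442-17791691, plus strand, TAIR10.1) holds 1 match of each, read on both strands and in capitals.
RPL16A: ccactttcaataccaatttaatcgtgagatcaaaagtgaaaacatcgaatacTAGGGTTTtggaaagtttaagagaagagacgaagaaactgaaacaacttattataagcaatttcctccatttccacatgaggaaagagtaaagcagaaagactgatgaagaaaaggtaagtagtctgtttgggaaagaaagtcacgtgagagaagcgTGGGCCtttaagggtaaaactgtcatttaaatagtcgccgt
TGGGCC was in 17.4% of the windows of all tested loci of 1 gene, in 61.1% of the 18 ribosomal protein genes and in 47.4% of the 19 replication genes. Among all loci it was in 17.9% of those lower by at least 1 on the log2 scale, 17.7% of those not called, 8.63% of those higher by at least 1 and 5.75% of those higher by at least 3. The telo-box was in 3.68% of all windows and in 2 of the 18 windows of the ribosomal protein genes (11.1%). Among all loci it was in 3.83% of those lower by at least 1 and 3.73% of those not called. It was in 2.09% of those higher by at least 1 and 0.875% of those higher by at least 3. The motifs do not overlap each other in this window.

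Nuclear genes of photosynthesis fell, 16 of 18 with none higher (median log2 -0.98, -1.03 with cycloheximide alone). LHCA1, an antenna protein of photosystem I, read 247, 241 and 225 FPKM untreated, 55.1, 49.5 and 52.1 with both compounds and 63.7, 61.9 and 59.1 with cycloheximide alone, -2.16 ± 0.08 (SE), adjusted p = 2.5e-07. LHCA4 and LHCB3, further antenna proteins, and PSAF, a photosystem I subunit, fell, at -1.79 ± 0.09 (SE), -2.09 ± 0.09 (SE) and -1.35 ± 0.09 (SE). LHB1B2, an antenna gene of photosystem II with close paralogs, was among the 15 largest falls at -3.07 ± 0.29 (SE). None of the list was called between the treated groups.

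The circadian clock list divided by gene. Of 24 members 12 fell and 5 rose (median log2 -0.81). GI and FKF1, which act together in the daylength response of flowering, read 37, 41.2 and 33.3 and 35.9, 38.7 and 36.1 FPKM in untreated, 6.23, 3.5 and 3.9 and 12.9, 9.27 and 7.56 with cycloheximide and 3.73, 3.75 and 2.85 and 7.12, 7.07 and 5.47 with both compounds. Every treated library was below every untreated one. The log2 fold changes were -3.10 ± 0.18 (SE) and -2.33 ± 0.17 (SE), adjusted p = 2.9e-06 and 9.3e-06. LNK1, a coactivator of afternoon clock genes, fell from 13.9, 14.6 and 12.2 to 0.354, 0.654 and 0.504 FPKM, -3.28 ± 0.12 (SE), and ELF4, of the evening complex, at -2.18 ± 0.19 (SE). The morning factor CCA1 fell, at -0.86 ± 0.12 (SE), while its partner LHY and the evening factor TOC1 did not pass the test, at -0.26 ± 0.16 (SE) and -0.08 ± 0.17 (SE). BOA, a relative of the evening factor LUX, rose from 12.5, 12.2 and 15.6 to 83, 95.2 and 89.1 FPKM, 2.65 ± 0.11 (SE), and CHE, a repressor of CCA1, rose by 1.16 ± 0.11 (SE). No source used here gives the time of day of sampling, and its part in these values was not tested.

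Of 23 splicing factors and clock-controlled RNA-binding proteins 11 fell and 1 rose (median log2 -0.43). The member that rose was the SR protein RS31A, by 0.52 ± 0.07 (SE). GRP7, a glycine-rich RNA-binding protein of a clock-driven feedback loop, read 1500.5, 1336 and 1129.5 FPKM without treatment, 685, 420.0 and 315 in cycloheximide and 372, 317 and 223 in both compounds, -2.14 ± 0.30 (SE), adjusted p = 0.00036. Its partner GRP8 fell, at -0.96 ± 0.24 (SE), and the SR proteins SCL30A and SR30 at -0.79 ± 0.15 (SE) and -0.78 ± 0.15 (SE). FPKM of whole loci does not show changes between spliced forms. The promoter of GRP7 is shown for the evening element AAAATATCT, which clock factors bind. Its window (chr2:9266558-9266807, minus strand, TAIR10.1) holds 3 matches on both strands, in capitals.
GRP7: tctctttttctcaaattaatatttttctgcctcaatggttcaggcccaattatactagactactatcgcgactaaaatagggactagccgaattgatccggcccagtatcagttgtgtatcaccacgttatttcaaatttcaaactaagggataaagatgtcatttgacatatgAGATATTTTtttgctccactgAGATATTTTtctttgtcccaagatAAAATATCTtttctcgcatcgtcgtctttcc
The element was in 2.58% of the windows of all tested loci of 1 gene, 25% of the 24 clock genes, 3.6% of loci lower by at least 1 on the log2 scale, 2.92% of those higher by at least 1 and 2.16% of those not called.

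Genes with conserved upstream reading frames, and factors of nonsense-mediated decay, were read as a list because that decay depends on translation. Of 11 members 6 fell and 3 rose (median log2 -0.32). XPL1, a phosphocholine synthesis enzyme, fell from 209, 234 and 214 to 35.4, 41 and 30.8 FPKM, -2.59 ± 0.15 (SE). The sucrose-regulated factor BZIP11 read 126, 126 and 111 in untreated, 55.4, 51.8 and 55.7 in cycloheximide and 34.8, 37 and 34.5 in both compounds, -1.75 ± 0.08 (SE) against untreated and -0.60 ± 0.08 (SE) between the treated groups, where its call was lost without replicate 3 of both compounds (adjusted p = 0.0558). BZIP44 and BZIP2, of the same family, fell, at -1.25 ± 0.08 (SE) and -0.80 ± 0.14 (SE). The decay factors UPF1 and UPF3 were among the members that rose, by 0.25 ± 0.07 (SE) and 0.33 ± 0.07 (SE). Under quantile normalization 2 members of the list rose and 7 fell.

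Among 17 wall-loosening genes 6 were higher and 7 lower, beside 30.8% higher and 33.1% lower of all loci. TCH4, a touch-induced xyloglucan endotransglucosylase, read 42.4, 51.7 and 126 FPKM untreated, 2689.9, 3262 and 3306 with both compounds and 2096, 2856 and 3412 with cycloheximide alone, 5.54 ± 0.38 (SE), adjusted p = 7e-06. Untreated replicate 3 was the highest untreated library, as for TCH3 and MPK3. XTH23, of the same enzyme family, rose by 4.47 ± 0.27 (SE) and the expansin EXPA1 by 1.96 ± 0.30 (SE), while XTH7 fell from 8.06, 7.73 and 5.05 to 0.422, 0.476 and 0.363 FPKM, -2.46 ± 0.17 (SE).

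The largest falls of named genes included genes of the cell surface, flavonoids and glucosinolates. TIP2, an aquaporin of the vacuole membrane, read 773, 782 and 633 FPKM without treatment, 93.9, 95.4 and 59.1 in cycloheximide and 44.2, 51.7 and 47.2 in both compounds. Every treated library was far below the lowest untreated one, and the log2 fold change was -3.90 ± 0.19 (SE), adjusted p = 1.1e-06. TT4, the chalcone synthase that starts flavonoid synthesis, went from 115, 118 and 82.9 to 6.63, 8 and 6.93 FPKM, -3.69 ± 0.20 (SE), and CHIL, a chalcone isomerase-like protein of the same pathway, fell, at -2.74 ± 0.12 (SE). AGP21, an arabinogalactan peptide, ELP, an extensin-like protein, LTP3, a lipid transfer protein, and MLP423, a major latex protein relative, fell, at -3.69 ± 0.20 (SE), -3.29 ± 0.12 (SE), -3.06 ± 0.31 (SE) and -3.04 ± 0.22 (SE). CYP96A15, a hydroxylase of cuticular wax, fell, at -2.92 ± 0.26 (SE). CYP83A1 and IPMI2, enzymes of aliphatic glucosinolate synthesis, fell, at -3.04 ± 0.33 (SE) and -3.12 ± 0.25 (SE). QSOX2, a sulfhydryl oxidase, had the largest fall of a named gene, -4.94 ± 1.66 (SE), but varied widely between libraries, at 2857, 2171 and 2164 in untreated, 728, 24.3 and 22.7 in cycloheximide and 22.3, 844 and 22.4 in both compounds. Its adjusted p of 0.029 rose to between 0.0621 and 0.0944 without any one untreated library or without replicate 1 or 3 of both compounds. TAS3b, a precursor of trans-acting small RNAs, fell from 12.6, 15.1 and 11 to 1.6, 1.77 and 0.168 FPKM, -2.76 ± 0.31 (SE). At least 52 other loci with larger falls than the 15th of these held no single gene with a symbol and are not named.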

How the data were processed

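RNA from inflorescences was sequenced on an Illumina HiSeq instrument after an RNeasy extraction and a TruSeq RNA v2 library, per the labels' protocols. The authors deposited 1 table of FPKM per locus, made with TopHat, Cufflinks and Cuffdiff on TAIR10 per the submitters' processing notes. Their versions are not stated. The 9 FPKM columns were used and 18 columns of confidence bounds were not. Loci with status OK in all libraries and a mean of at least 1 FPKM were kept, and loci were assigned to genes and symbols by coordinates of RefSeq TAIR10.1. The 3 groups of 3 libraries are those of the labels. Nothing says that replicates came from separate cultures or pots beyond the label, so p-values measure the spread between these samples.

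Log2(FPKM + 1) was fitted with limma 3.58.1 in R 4.3.3 over 9 libraries with an intensity trend, moderated tests and Benjamini-Hochberg adjustment over 19569 loci, and a call is an adjusted p under 0.05. The code was tested on simulated data. Tables were made with pandas 2.3.3 and numpy 2.4.6 in Python 3.11.15, figures with matplotlib 3.10.9. Named genes are AP1, CAL and chosen floral regulators, the 15 largest rises and falls among called loci of 1 gene with a symbol whose groups do not overlap, and up to 4 called members a list with the largest changes. Members named outside this rule, such as those that moved against their list, were chosen after their values were seen. The members and lists were chosen with earlier results of these data known. Alternatives were the pseudocount, the filter on FPKM, the scaling, the libraries fitted, a replicate block, the loci under 300 bp, the intensity trend and each library left out. Replicate numbers were taken to pair the treated groups, from the data and not the labels, since the deviations of same-numbered libraries from their group means correlated at 0.353, 0.131 and 0.213. Libraries of different numbers correlated at -0.281 to 0.113. The highest of these, cycloheximide replicate 2 with replicate 3 of both compounds, was close to the 0.131 of replicate 2. A few genes and 1 sequence are not reported here.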

Additional observations from a re-analysis of the deposited data

How the results depend on the processing

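Counts of higher and lower loci stayed within 1.5 times of those reported under every alternative run, and the same held for rises of at least 1 on the log2 scale, which were 2499 with quantile normalization. Falls of that size, 1604 as reported, were 2530 with that normalization. Of 72 list counts, 49 stayed within 1.5 times under every alternative. Leaving out 1 library at a time gave 5433 to 6060 higher and 5523 to 6616 lower loci, and 2868 to 3034 rises and 1469 to 1766 falls of at least 1 on the log2 scale. Of 175 called named loci, 165 kept direction and call under every alternative that holds them. The other 10 were RBOHF, QSOX2, AP3, SEP3, GIF3, ARR6, BRI1, HTB11, HTB1 and FUL. Beyond left-out libraries, RBOHF lost its call with no filter (adjusted p = 0.0588), SEP3 with no filter (0.05), AP3 with no filter (0.0703), median-of-ratios scaling or no intensity trend (0.0518 each), FUL with median-of-ratios scaling (0.067), and ARR6 and BRI1 with quantile normalization (0.0919 and 0.112). AP1, not called as reported, turned to -0.0129 with quantile normalization (adjusted p = 0.959) and to -0.0017 without replicate 2 of both compounds (0.996), and left-out libraries moved it between -0.0017 and 0.3334 on the log2 scale. The cause was not tested. Between the treated groups, the calls of TFL1, FD, LSH1, LSH4, KNATM and SMR5 held under all 17 alternatives, while those of BAP2, LMI1, ZPR1, ZPR2, ELP and BR6OX2, among others, were lost under some.

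Replicate numbers were not taken to pair untreated libraries with those of both compounds, since the correlations of their deviations from group means were 0.058, -0.115 and 0.0622. With the replicate block in all 9 libraries, 6306 loci were higher and 6970 lower, and with the block in the 6 libraries 5770 and 6286, where HTB11 and FUL lost their calls (adjusted p = 0.0583 and 0.0633). Between the treated groups the block, an alternative chosen after seeing the data for that comparison, gave the counts of 1102 and 1544 stated above, and in the 6 treated libraries no ribosomal protein, photosynthesis, JAZ or jasmonate metabolism gene of the lists was called. Absolute depth is unknown, so no counting interval could be given, and values near 0 FPKM are the least precise.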

Other observations

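Precursor genes of small RNAs, a group chosen after its values were seen, fell. Of 27 tested loci of 1 microRNA gene 15 were lower and none higher with both compounds than untreated (median log2 fold change -0.93), and of 6 trans-acting siRNA genes all 6 were lower (median -1.25). The background is 33.1% of all loci lower and 30.8% higher. MIR319a, whose product targets TCP factors of leaf and petal growth, read 82.5, 79.2 and 72.4 FPKM untreated, 27.5, 15.7 and 20.6 with both compounds and 43.5, 39.5 and 34 with cycloheximide alone, -1.86 ± 0.18 (SE), adjusted p = 4.9e-05 by limma over all loci. MIR159b, whose product targets GAMYB-type factors, read 6.77, 6.16 and 5.4 and 0.908, 1.45 and 1.31 at its longer locus, -1.68 ± 0.16 (SE). A shorter MIR159b locus within it, also among the 27, was not called by limma, at -0.33 ± 0.57 (SE), adjusted p = 0.64. MIR160c and MIR160a, of a family that targets auxin response factors, fell, at -1.76 ± 0.21 (SE) and -0.95 ± 0.31 (SE). MIR171a, of a family that targets HAM genes, fell, at -1.37 ± 0.17 (SE) at a locus that touches AT3G51380, and MIR172b, of a family that targets AP2 and its relatives, at -1.90 ± 0.47 (SE). TAS3, which MIR390 products trigger, read 16, 14.6 and 13.8 FPKM untreated, 5.71, 5.2 and 6.23 with both compounds and 13.9, 11.7 and 16.9 with cycloheximide alone, -1.24 ± 0.13 (SE). These are precursor RNAs, and mature small RNAs were not measured here.

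The mature sequences encoded by these genes, read from the RefSeq annotation of TAIR10.1, are shown with the seed, bases 2 to 8, in capitals. The MIR160 products shown are identical to each other, and those of MIR159b and MIR319a share 17 of 21 bases at the best ungapped offset though their seeds as counted differ.
miR319a (chr4:12353109-12353129, plus strand): uUGGACUGaagggagcucccu
miR159b-3p (chr1:6220813-6220833, plus strand): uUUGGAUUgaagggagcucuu
miR160a-5p (chr2:16340282-16340302, plus strand): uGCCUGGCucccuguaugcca
miR160c-5p (chr5:19009158-19009178, minus strand): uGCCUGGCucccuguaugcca
miR171a-3p (chr3:19073521-19073541, plus strand): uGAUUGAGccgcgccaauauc
miR172b-3p (chr5:1188211-1188231, minus strand): aGAAUCUUgaugaugcugcau

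Other families, also chosen after their values were seen and read by gene symbol, are given as counts. Of 21 plant U-box ubiquitin ligases 20 rose and none fell (median log2 2.21), of 10 cysteine-rich receptor-like kinases 8 rose and 1 fell (2.88), and of 16 tau-class glutathione S-transferases 11 rose and 2 fell (2.26). Of 20 arabinogalactan proteins 14 fell and 5 rose (-1.43), of 16 ketoacyl-CoA synthases of long-chain lipids 13 fell and 2 rose (-0.78), and of 29 ubiquitin-conjugating enzymes 20 fell and 7 rose (-0.50).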
